A study of Danio rerio with 12 samples.

Results

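The genes described here encode the pore-forming and auxiliary subunits of potassium, sodium and calcium channels, measured in whole zebrafish (Danio rerio) larvae. They were chosen by symbol: every gene whose name began with kcn and a further letter, with scn and a digit, or with cacna, cacnb or cacng, and that had a probe set carrying that symbol alone. This gave 168 genes of the 18985 with such a probe set, namely 112 potassium, 43 calcium and 13 sodium channel genes. All 168 passed the filter on low values and entered every test. The rule on symbols used no expression value, though it was chosen with earlier results of these data known. For a gene with several probe sets, the one of highest mean was used. The symbols also took in families that are not opened by voltage, the inward rectifiers (kcnj, 30 genes), the leak channels (kcnk, 19 genes) and the calcium- or sodium-activated potassium channels (9 genes).

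The larvae were of the AB wild-type line and came from 6 groups of 2 arrays each. Embryos had their chorion removed with Proteinase K and received 5-HT (serotonin), vehicle, or reserpine, an inhibitor of the transporter that loads monoamines into vesicles. The titles of the treated samples place the injection at the zygote. Every injection was made in a KCl solution that held TRITC-dextran to mark it, and controls also received DMSO and ethanol, in which reserpine had been dissolved. No dose is given in the sources used here. Larvae were taken at 2 or 4 days post fertilisation (dpf), so that the groups were control, 5-HT and reserpine at each age. Each array held RNA of a pool of 30 to 40 larvae, and the replicates are called biological in the labels. Serotonin present before neurons form is the subject named in the series title.

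Voltage-gated channels open when the membrane potential changes, and the ions they pass shape the action potential of nerve and muscle. Sodium channels carry the upstroke, potassium channels the return to rest, and calcium channels couple the signal to transmitter release and contraction. The pore is formed by alpha subunits. Auxiliary subunits set how much channel reaches the membrane and how it opens. Most of these genes have 2 copies in zebrafish, marked a and b, from the genome duplication of teleost fish.

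The median log2 value of an array lay between 6.44 and 6.56. One array carried conflicting labels: the description of 4 dpf reserpine replicate 2 speaks of 2-day larvae, while its title, source and age give 4 days. It was kept at 4 dpf, and the main result is given with and without it. The array mean ran from 10.128 to 10.416 over 17 neuron markers and from 11.548 to 11.897 over 23 skeletal muscle markers. RNA came from whole animals, so that a change in the number of cells of a type and a change in RNA per cell cannot be told apart.

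Between 2 and 4 dpf, averaged over the 3 injections, 57 of the 168 genes rose and 8 fell (limma, Benjamini-Hochberg adjusted p under 0.05, here called). That is 33.9% higher and 4.76% lower, where 17.0% of all 18407 genes tested were called higher and 20.4% lower. The median log2 change was 0.21 over the channel genes, with 122 above 0 and 46 below, and -0.06 over all genes. The mean over the 168 genes lay between 7.545 and 7.739 on the 2 dpf arrays and between 7.800 and 7.920 on the 4 dpf arrays, without overlap. Over all genes the array means of the ages overlapped (8.367 to 8.425 and then 8.383 to 8.467).

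Of the 65 calls, 44 held without any 1 array and under every other setting tried, 41 higher and 3 lower. Without 4 dpf reserpine replicate 2 there were 57 calls, 52 higher and 5 lower. All 6 arrays of 4 dpf lay above all 6 of 2 dpf for 36 channel genes, a pattern found in 12.3% of all genes, and below them for 5, found in 13.4% of all genes. Most changes were small. In all, 4 genes were called with a rise of at least 2-fold (cacna2d4b, scn4ab, kcna1b and kcnj10b), and 0 with such a fall. The share of all genes at that size is not given here, so these counts are not read as particular to channel genes. The 95% interval of a change with age reached from 0.16 to 0.48 to either side, with a median of 0.23 over the 168 genes.

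The share called varied between the families, and the differences between them were not tested. Calcium channel genes had 18 higher and 2 lower of 43, with a median log2 change of 0.28. Potassium channel genes had 36 higher and 6 lower of 112, with a median of 0.19. Sodium channel genes had 3 higher and 0 lower of 13, with a median of 0.26 and 12 of 13 above 0. Without any 1 array the calls that held were 14 higher and 1 lower for calcium, 24 and 2 for potassium and 3 and 0 for sodium. Within the potassium family, leak channels had the lowest median of the 5 subfamilies (0.04) and the auxiliary subunits the highest (0.33).

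**Figure D1:**
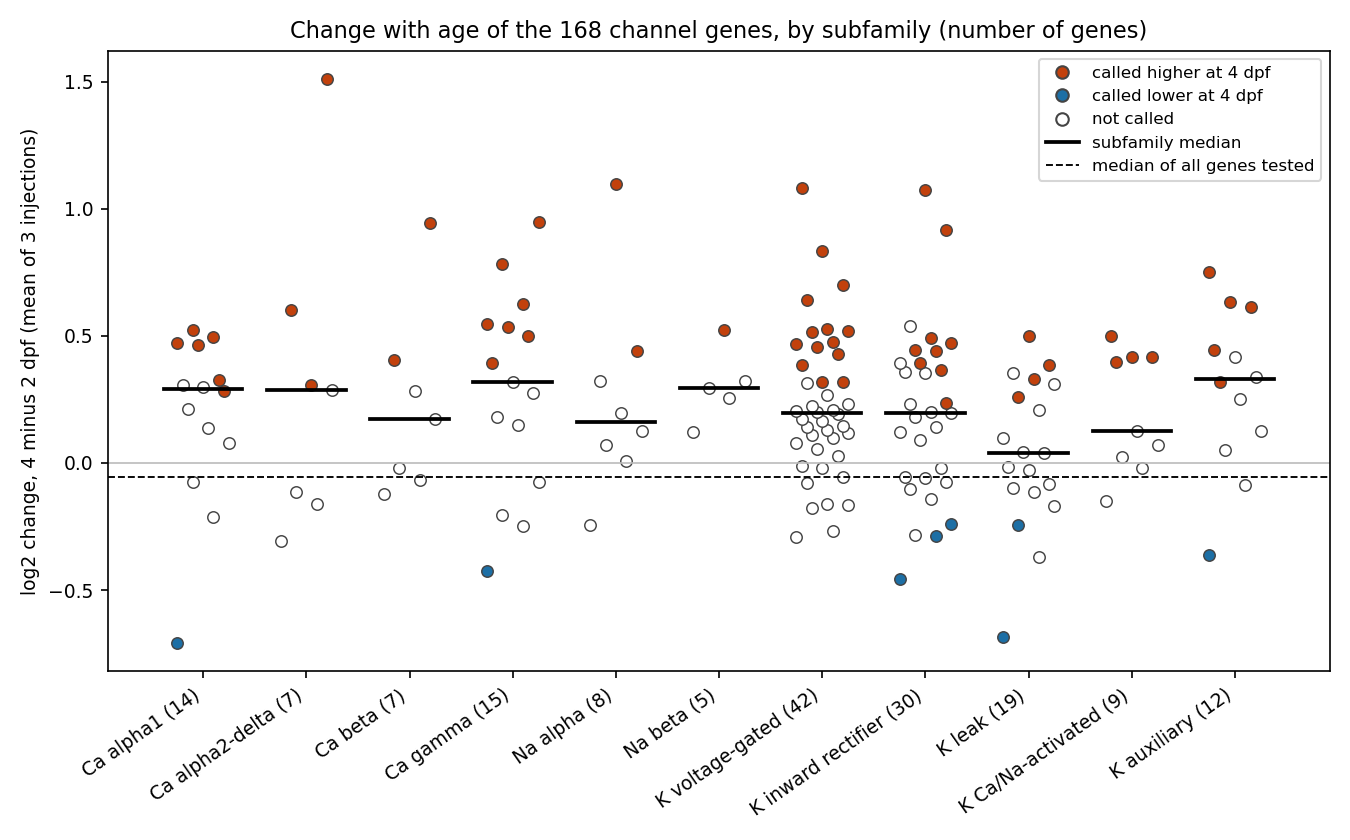
Log2 change between 4 and 2 dpf (vertical axis, mean of the 3 injections) of each of the 168 channel genes (points), grouped by subfamily with the number of genes in brackets. Filled points passed the test, bars are subfamily medians and the dashed line is the median of all genes tested, -0.06. The 11 subfamily medians lie between 0.04 and 0.33, above that line.

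Among the calcium channel pores (cacna1 genes), 6 of 14 were called higher and 1 lower, with a median log2 change of 0.29. Rises that held without any 1 array were in cacna1ha (0.52, SE 0.08, adjusted p = 0.00127) and cacna1ia (0.46), which encode low-voltage-activated T-type channels. Another was in cacna1fb (0.50), a copy of the gene whose L-type channel serves photoreceptor synapses in mammals. The last was in cacna1db (0.47), a copy of another L-type gene. The channel of zebrafish hair cells is known from its other copy, cacna1da, which had 0.21 and was not called (adjusted p = 0.201). The ages did not overlap for cacna1fb and cacna1ia, and they overlapped for cacna1ha and cacna1db. On the 2 dpf arrays cacna1fb had 7.0 as its lowest, 7.27 as its median and 7.48 as its highest value, and on the 4 dpf arrays 7.63, 7.705 and 7.93. The pores of presynaptic neuronal channels were not called: cacna1aa had 0.14 and cacna1ab 0.31, and the N-type genes cacna1ba and cacna1bb had -0.08 and -0.21. Of the T-type genes, cacna1g and cacna1ib (0.08, adjusted p = 0.665) were not called either.

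The pore gene with the largest fall was cacna1sa, a copy of the gene for the voltage sensor of skeletal muscle contraction. In zebrafish this copy is known from slow muscle and the other, cacna1sb, from fast muscle. The 2 dpf arrays read 9.50 and 9.17 (control), 9.42 and 9.58 (5-HT) and 9.46 and 9.32 (reserpine), and the 4 dpf arrays 8.77 and 8.85, 8.57 and 8.50, and 8.78 and 8.73. Every 4 dpf array lay below every 2 dpf array, and cacna1sa fell by 0.71 (SE 0.09, adjusted p = 0.000411). The gene cacnb1, for the beta subunit of the same complex, had -0.12 (adjusted p = 0.322) and overlapping ages.

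Auxiliary calcium channel subunits held the largest change of all 168 genes. It was in cacna2d4b, a copy of the alpha2-delta subunit gene that in mammals serves photoreceptors. Its 2 dpf arrays read 7.36 and 7.76 (control), 7.72 and 7.72 (5-HT) and 6.57 and 8.01 (reserpine), and its 4 dpf arrays 9.15 and 9.04, 9.04 and 9.02, and 9.11 and 8.84. The 4 dpf values lay close together and above every 2 dpf value, while the reserpine arrays of 2 dpf held both the lowest and the highest value of that age. The log2 change was 1.51 (SE 0.21, adjusted p = 0.000964). The second alpha2-delta rise that held without any 1 array was in cacna2d3a (0.60, adjusted p = 0.0018). Of the beta subunits, which bring the pore to the membrane, cacnb2b rose by 0.94 (SE 0.14, adjusted p = 0.00119), from a 2 dpf range of 8.12 to 8.93 to a 4 dpf range of 9.34 to 9.66. In mammals this beta subunit is the main one of heart and photoreceptors.

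Photoreceptor markers rose with age beside some of the channel genes listed for the retina. Of 22 such markers 20 rose and 1 fell, with a median log2 change of 1.94, and their array mean went from between 7.571 and 8.725 on the 2 dpf arrays to between 9.968 and 10.132 on those of 4 dpf. The array with the lowest mean, 2 dpf reserpine replicate 1, was also the lowest for cacna2d4b. Of the 7 channel genes listed for the retina, 4 were called higher, cacna2d4b, cacna1fb, kcnv2a and kcnj10a. The other copies cacna2d4a and kcnv2b had -0.16 and -0.08 and were not called. The remaining listed gene, kcnj13, was not called over the 3 injections. It was called lower within the 5-HT larvae (-0.775, limma adjusted p = 0.0235), and not in controls or after reserpine. That call was lost without any one 5-HT array. Within the 5-HT larvae the kcnj10a change was -0.115. The kcnj10a call was lost without 2 dpf 5-HT replicate 1 (adjusted p = 0.0532), 4 dpf 5-HT replicate 2 (0.0535) or 4 dpf control replicate 1 (0.0561). The part of the markers in these changes was not tested.

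The gamma subunit genes (cacng) had the largest share called higher of the 4 calcium subfamilies, 7 of 15, with 1 lower. Several gamma subunits are better known as partners of AMPA-type glutamate receptors than of calcium channels, among them those of cacng5, cacng7 and cacng8, and both copies of each of these 3 were called higher without any 1 array. The smallest adjusted p of all 168 genes was that of cacng7b. Its 2 dpf arrays read 7.51 and 7.39 (control), 7.86 and 7.75 (5-HT) and 7.60 and 7.62 (reserpine), and its 4 dpf arrays 8.61 and 8.69, 8.40 and 8.37, and 8.73 and 8.62. The ages did not overlap, with the 5-HT arrays highest at 2 dpf and lowest at 4 dpf, and the change was 0.95 (SE 0.07, adjusted p = 2.27e-05). The rises of cacng5a (0.78), cacng5b (0.63) and cacng8b (0.55) also left the ages apart, while those of cacng7a (0.53) and cacng8a (0.39) did not.

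Of other partners of the same receptor, cacng2a (0.15), cacng2b (0.18), cacng3a (0.32), cacng3b (-0.07) and cacng4a (-0.25) were not called. The other copy of the last, cacng4b, was called lower. The fall of cacng4b (-0.43, adjusted p = 0.0262) was lost without any one of 7 arrays, with an adjusted p between 0.0537 and 0.0707. Those arrays were 5-HT replicate 2, control replicate 1 and reserpine replicate 2 at 2 dpf, and 5-HT replicate 1, both controls and reserpine replicate 2 at 4 dpf. Of the muscle gamma subunits, cacng6a rose by 0.50 (SE 0.09, adjusted p = 0.00478) without overlap of the ages, and cacng1a (-0.20) and cacng6b (0.28) were not called.

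Of the sodium channel pores, scn4ab rose most. It is a copy of the gene for the skeletal muscle sodium channel. Its 2 dpf arrays read 8.01 and 7.78 (control), 8.19 and 7.62 (5-HT) and 7.52 and 7.95 (reserpine), and its 4 dpf arrays 8.89 and 8.88, 9.29 and 8.81, and 9.23 and 8.55. All 4 dpf values lay above all 2 dpf values, and the log2 change was 1.1 (SE 0.16, adjusted p = 0.0013). Skeletal muscle markers showed no such change as a list, with 2 of 23 higher, 2 lower and a median of 0.14. Their array mean spanned 11.548 to 11.897 among 2 dpf arrays and 11.665 to 11.809 among the older ones, with overlap.

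The second sodium pore that rose was scn12aa, by 0.44 (SE 0.08, adjusted p = 0.00462), and its other 2 probe sets had 0.62 (adjusted p = 0.0108) and 0.51 (adjusted p = 0.0124). Pores of the brain were not called, with 0.07 for scn1laa, -0.24 for scn1lab, 0.01 for scn8aa and 0.20 for scn8ab. The pore gene scn5lab was not called either (0.125, adjusted p = 0.47, and 0.025 for its other probe set). Sodium channel beta subunits, which are adhesion proteins as well as channel partners, were all above 0. One of the 5 was called, scn1bb, with 9.47, 9.93 and 10.10 as lowest, median and highest value at 2 dpf, 10.15, 10.415 and 10.69 at 4 dpf, and a change of 0.52 (SE 0.12, adjusted p = 0.0131).

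**Figure D2:**
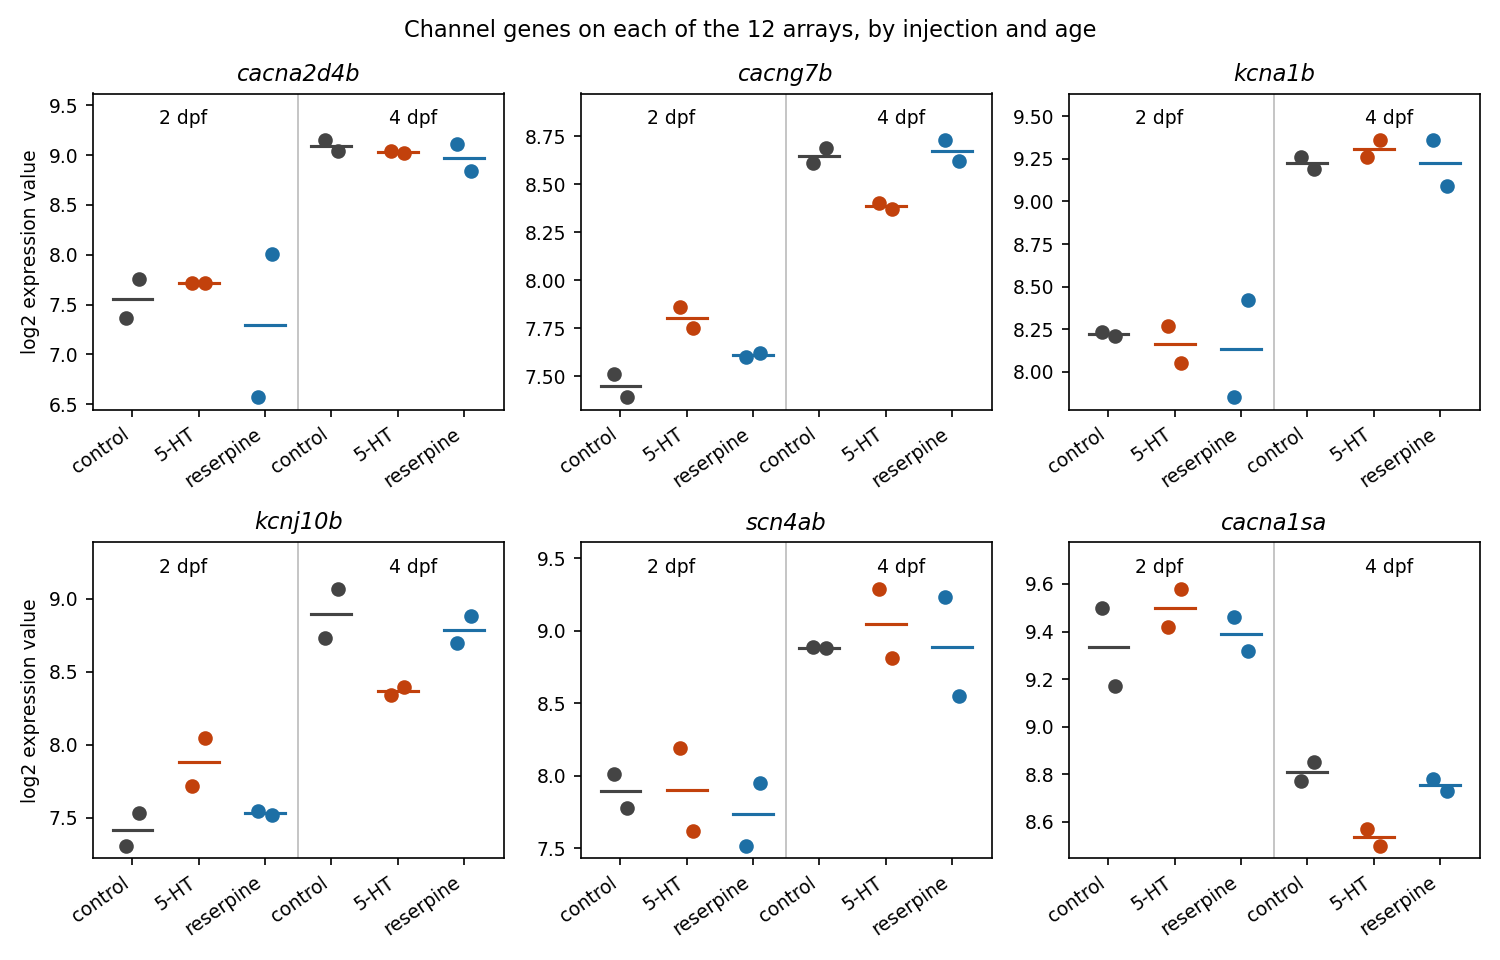
Log2 expression values (vertical axes) of 6 channel genes on each array (points), by injection and age, with the group mean as a bar. For cacna2d4b, cacng7b, kcna1b, kcnj10b and scn4ab every 4 dpf array lies above every 2 dpf array, and for cacna1sa every 4 dpf array lies below.

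Voltage-gated potassium channels, which end the action potential and set the firing pattern, had 14 of 42 genes higher and 0 lower, with a median log2 change of 0.20. The largest rise was in kcna1b, which encodes a channel of axons. At 2 dpf its arrays read 8.23 and 8.21 (control), 8.27 and 8.05 (5-HT) and 7.85 and 8.42 (reserpine), and at 4 dpf 9.26 and 9.19, 9.26 and 9.36, and 9.36 and 9.09. The ages did not overlap, and the change was 1.08 (SE 0.11, adjusted p = 0.000153). Its copy kcna1a rose by 0.43 (SE 0.08, adjusted p = 0.00384).

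Further rises without overlap of the ages, all held without any 1 array, were in kcnb2a (0.84), a delayed rectifier, kcnh6b (0.70), of the ether-a-go-go family, kcna7 (0.64), known from muscle in mammals, kcnv2a (0.52), a silent subunit of photoreceptors, and kcnd1 (0.52), of a transient current. The silent subunit gene kcng1 (0.53), kcnh5b (0.48) and kcnc3a (0.46), of a channel of fast-firing neurons, rose with overlapping ages. Genes of the subthreshold M-current were not called, with 0.10 for kcnq2a, -0.18 for kcnq2b and -0.06 for kcnq3.

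Of the 33 channel genes listed for central neurons, 10 were called higher and 0 lower, with a median of 0.20. Neuron markers gave 3 higher and 5 lower of 17, with a median of -0.12, and their array means overlapped between ages (10.139 to 10.416 and 10.128 to 10.330). The pan-neuronal genes elavl3 and elavl4 fell by 0.30 and 0.35. The synaptic vesicle gene syt1a rose by 0.50.

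Inward rectifiers hold the resting potential, and in glia and epithelia they carry potassium across the membrane. Of 30 genes 9 were called higher and 3 lower, with a median of 0.20. The largest rise was in kcnj10b, a copy of the gene for the channel of glial cells. Its 2 dpf arrays read 7.31 and 7.53 (control), 7.72 and 8.05 (5-HT) and 7.55 and 7.52 (reserpine), and its 4 dpf arrays 8.73 and 9.07, 8.34 and 8.40, and 8.70 and 8.88. The ages did not overlap, the 5-HT arrays came closest to each other across the ages, and the change was 1.07 (SE 0.10, adjusted p = 7.43e-05).

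Next was kcnj12b, of the strong rectifiers of muscle and heart, with 0.92 (SE 0.10, adjusted p = 0.000263) and 2 dpf values of 7.32 to 7.88 against 4 dpf values of 8.28 to 8.85. Smaller rises held in kcnj14 (0.49) and kcnj16a (0.44). The fall that held was in kcnj3a, a copy of the gene for a channel opened by G proteins in heart and brain, which went from a 2 dpf range of 8.47 to 8.90 to a 4 dpf range of 7.86 to 8.31 and fell by 0.46 (SE 0.11, adjusted p = 0.0125). Of 6 oligodendrocyte markers 3 rose and 2 fell, and their array mean lay between 8.832 and 9.110 among 2 dpf arrays and between 9.485 and 9.700 among 4 dpf arrays. Their part in the kcnj10b change was not tested.

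Leak channels, which set the resting conductance, had 4 of 19 genes higher and 2 lower. Both copies of kcnk3, an acid-sensitive leak channel, rose, kcnk3a by 0.50 (adjusted p = 0.00424) and kcnk3b by 0.38 (adjusted p = 0.0119), each without overlap of the ages. The copy kcnk10b, of a mechanically gated leak channel, fell by 0.69 (SE 0.12, adjusted p = 0.00283). Its 2 dpf arrays read 7.79 and 7.09 (control), 6.83 and 6.92 (5-HT) and 7.18 and 7.19 (reserpine), and its 4 dpf arrays 6.43 and 6.51, 6.79 and 6.64, and 6.26 and 6.26. The ages did not overlap, and they came closest on the 5-HT arrays.

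Potassium channels opened by calcium or sodium had 4 of 9 genes higher and 0 lower, and all 4 held without any 1 array. They were kcnt1a (0.50) and kcnt2b (0.42), of sodium-activated channels, kcnma1b (0.42), of the large-conductance channel, and kcnn1b (0.40), of a small-conductance channel. Auxiliary potassium channel subunits had 5 of 12 higher and 1 lower. The calcium sensor gene kcnip3a rose by 0.75 (SE 0.10, adjusted p = 0.000759), from a 2 dpf range of 7.18 to 7.66 to a 4 dpf range of 8.0 to 8.38. The beta subunit genes kcnab2b (0.63), kcnab1b (0.61) and kcnab1a (0.44), which bind the channels of the kcna family, rose as well, each without overlap of the ages.

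The calls were also set side by side for the 2 copies of each gene. Of 47 pairs, 10 had both copies called higher, 17 had 1 copy higher and the other not called, 2 had 1 copy lower and the other not called, 16 had neither called and 2 were called in opposite directions. The difference between copies was not tested. The same counts over other gene pairs are not given here, so these are not read as particular to channel genes. In the alpha2-delta pair cacna2d4 the changes were -0.16 for a and 1.51 for b, in the beta pair cacnb2 -0.07 and 0.94, in the sodium pore pair scn4a 0.32 and 1.1, in the silent subunit pair kcnv2 0.52 and -0.08, and in the calcium sensor pair kcnip3 0.75 and 0.05. The leak pair kcnk10 had 0.31 for a (adjusted p = 0.058), with ages that did not overlap, and -0.69 for b.

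The pairs called in opposite directions were cacna1s and kcnj3, and in each the rising copy lost its call without any one of most arrays. The muscle sensor copy cacna1sb had 9.71, 9.87 and 10.26 as lowest, median and highest value at 2 dpf and 10.08, 10.195 and 10.30 at 4 dpf. The ages overlapped, and the change of 0.28 (adjusted p = 0.039) was lost without any one of 9 arrays (adjusted p = 0.0751 to 0.094). The 3 arrays whose loss left it called were 2 dpf control replicate 1, 2 dpf reserpine replicate 2 and 4 dpf reserpine replicate 2. For kcnj3b the 2 dpf values were 7.65, 8.03 and 8.37 and the 4 dpf values 8.15, 8.575 and 8.74. They overlapped, and its change of 0.47 (adjusted p = 0.0491) was lost without any array other than 2 dpf control replicate 1, 4 dpf 5-HT replicate 2 and 4 dpf reserpine replicate 2 (0.0759 to 0.128), with no filter on low values (0.0588) and with the mean of its 2 probe sets (0.105). Loss of the call did not need a smaller change: without 2 dpf 5-HT replicate 1 cacna1sb had 0.29 and kcnj3b 0.507. The falls of cacna1sa and kcnj3a held without any 1 array.

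**Figure D3:**
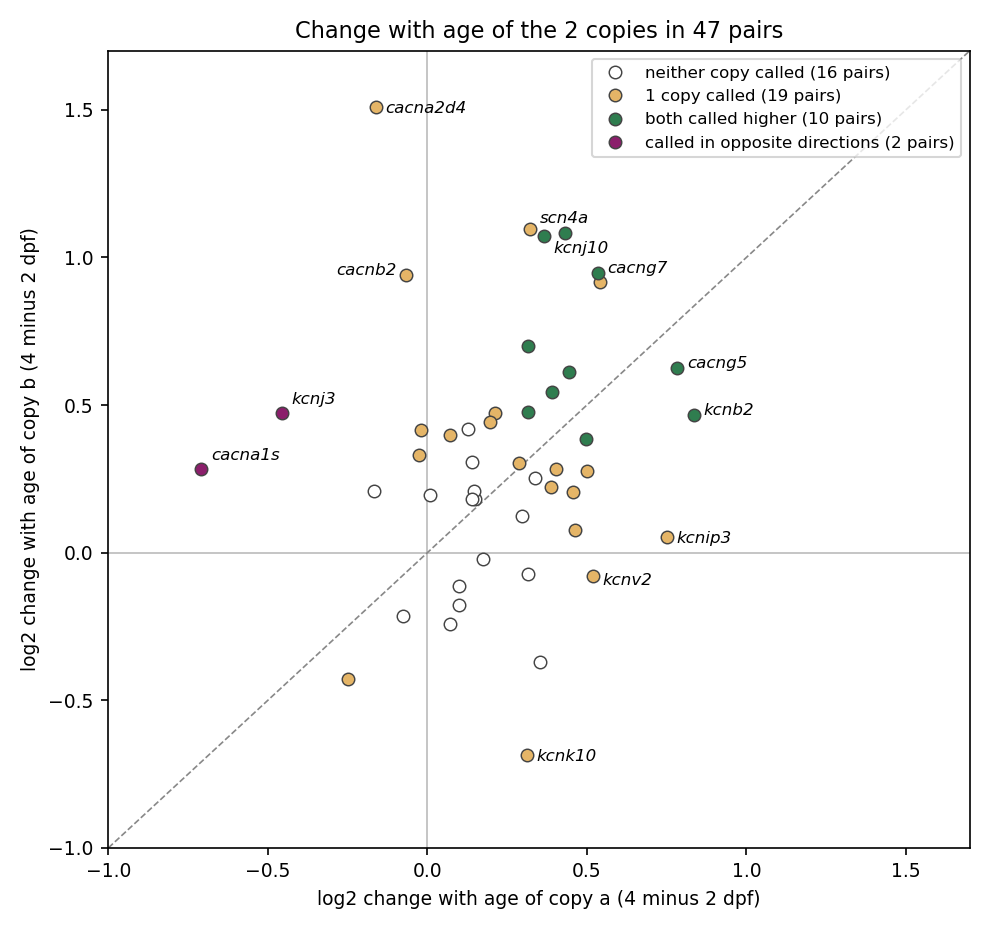
Log2 change with age (4 minus 2 dpf, mean of the 3 injections) of copy a (horizontal axis) and copy b (vertical axis) in 47 pairs, coloured by which copies passed the test, with equal change on the dashed line. The pairs cacna1s and kcnj3 lie in the quadrant of a fall in a and a rise in b, and cacna2d4 and cacnb2 show a rise in b beside values of -0.16 and -0.07 in a.

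By tissue, the channel genes listed for skeletal muscle had 3 of 8 called higher and 1 lower (cacna1sa), with a median of 0.28. The 3 were scn4ab, cacng6a and cacna1sb, the last with a call lost without any one of most arrays. Those listed for the heart had 5 of 12 higher and 1 lower, with a median of 0.24. Of these 5, scn12aa held without any 1 array. The rises of cacnb2b and kcnj12b, named above for the heart among other tissues but outside this list, held as well. Their other copies cacnb2a (-0.07) and kcnj12a (0.54) were not called. The kcnj5 rise (0.395) did not hold with 4 dpf control replicate 1 left out (adjusted p = 0.051), that of cacna1c (0.325) without any array other than the replicates 1 of 2 dpf control and reserpine (0.0647 to 0.105), and that of kcnh6a (0.32) without 8 arrays (0.0543 to 0.0899), all but the replicates 2 of 2 dpf control and of both 5-HT groups and 2 dpf reserpine replicate 1. Heart muscle markers had 1 of 14 higher and 6 lower, with a median of -0.26. Genes listed for transporting epithelia and islets had 1 of 14 higher and 1 lower, with a median of 0.05.

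Genes that work beside the channels were taken from lists as well. Of the pacemaker (HCN) and sodium leak genes 2 of 6 rose, hcn4 (0.65, adjusted p = 0.000858) and hcn3 (0.55). Of the sodium-potassium pump, which restores the gradients, 4 of 12 rose and 1 fell, with atp1a1a.4 at 1.24 and atp1b3a at -0.70. The chloride channels of the CLC family had 1 of 7 higher. Axonal scaffold and channel partner genes had 6 of 30 higher and 7 lower, with a median of 0.04. Among them were dlg2 (0.74), a scaffold of synapses, fgf11b (0.64), a modulator of sodium channels, and cntn2 (-0.55), an axonal adhesion protein. Excitation-contraction coupling genes had 5 of 19 higher and 4 lower, with atp2a1l, a calcium pump, at 1.30 and asph at -0.93.

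The change with age was then taken within each injection. These changes share no array, but their standard errors came from the same fit to all arrays. Calls in the different injections are thus not independent of each other. Among controls 22 channel genes were higher and 1 lower at 4 dpf (background 8.28% and 7.19%), with a median of 0.19. After 5-HT 14 were higher and 5 lower (background 7.34% and 4.62%), with a median of 0.13. After reserpine 19 were higher and 2 lower (background 6.51% and 4.54%), with a median of 0.275. Called higher in all 3 were 4 genes, cacng5b, cacng7b, kcna1b and kcnh6b, and this held for 4.39% of all genes. A further 11 were higher in 2 injections and 21 in 1, and 0 were called in opposite directions. Of the 65 genes called over the 3 injections, 59 had the same sign in each. For the counts of 11, 21, 0 and 59 the share of all genes is not given here, and nothing is read from them.

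The cacng7b change was 1.2 in controls, 0.58 after 5-HT and 1.07 after reserpine, and the kcna1b change 1.01, 1.15 and 1.09. For kcnj12b it was 0.52 in controls (not called), 1.29 after 5-HT and 0.95 after reserpine. The cacna1sa change was -0.53 in controls (not called), -0.97 after 5-HT and -0.64 after reserpine. Called alike in controls and after reserpine, and not after 5-HT, were 9 genes. The share of all genes with this pattern is not given here, so nothing is read from the count. The changes of these 9 in controls, 5-HT and reserpine were 0.92, -0.16 and 0.84 for cacng7a, 0.85, -0.09 and 0.82 for kcng1, and 0.80, 0.09 and 0.68 for cacna1ha. They were 0.62, -0.08 and 0.71 for kcnt2b, 0.98, 0.40 and 0.97 for cacng5a, and -0.97, -0.16 and -0.93 for kcnk10b. The other 3 had 5-HT values further from 0, with 1.535, 1.31 and 1.685 for cacna2d4b (adjusted p = 0.0555 after 5-HT), 0.945, 0.765 and 1.115 for cacnb2b (0.0767), and 1.48, 0.485 and 1.255 for kcnj10b (0.112). The difference of the 5-HT from the control value is the 5-HT effect compared between ages, and it was not called for any of these 9. Its adjusted p was 0.0564 for cacng7a, 0.0732 for kcnj10b, 0.0932 for cacna1ha and kcnt2b, 0.142 for kcng1, 0.19 for kcnk10b, 0.26 for cacng5a, 0.844 for cacnb2b and 0.877 for cacna2d4b.

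With 2 arrays a group, most calls within 1 injection were lost when some 1 array was left out. Some were lost though the change did not shrink. The cacna2d4b change in controls, for example, rose to 1.735 without 2 dpf control replicate 2. In controls 2 of 23 held without any 1 array (cacng7b and kcnj10b), after 5-HT 2 of 19 (cacna1sa and kcnj12b) and after reserpine 3 of 21 (cacng7b, kcnh6b and kcnj10b). The control count was 7 without 2 dpf control replicate 1, 14 without replicate 2, 2 without 4 dpf control replicate 1 and 3 without replicate 2. The 5-HT count was 4 without either 2 dpf 5-HT array, 3 and 2 without replicate 1 and 2 of 4 dpf 5-HT, and 11 without either 4 dpf control. The reserpine count was 7 and 13 without replicate 1 and 2 of 2 dpf reserpine, 4 and 11 without replicate 1 and 2 of 4 dpf reserpine, and 12 without either 4 dpf control.

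**Figure D4:**
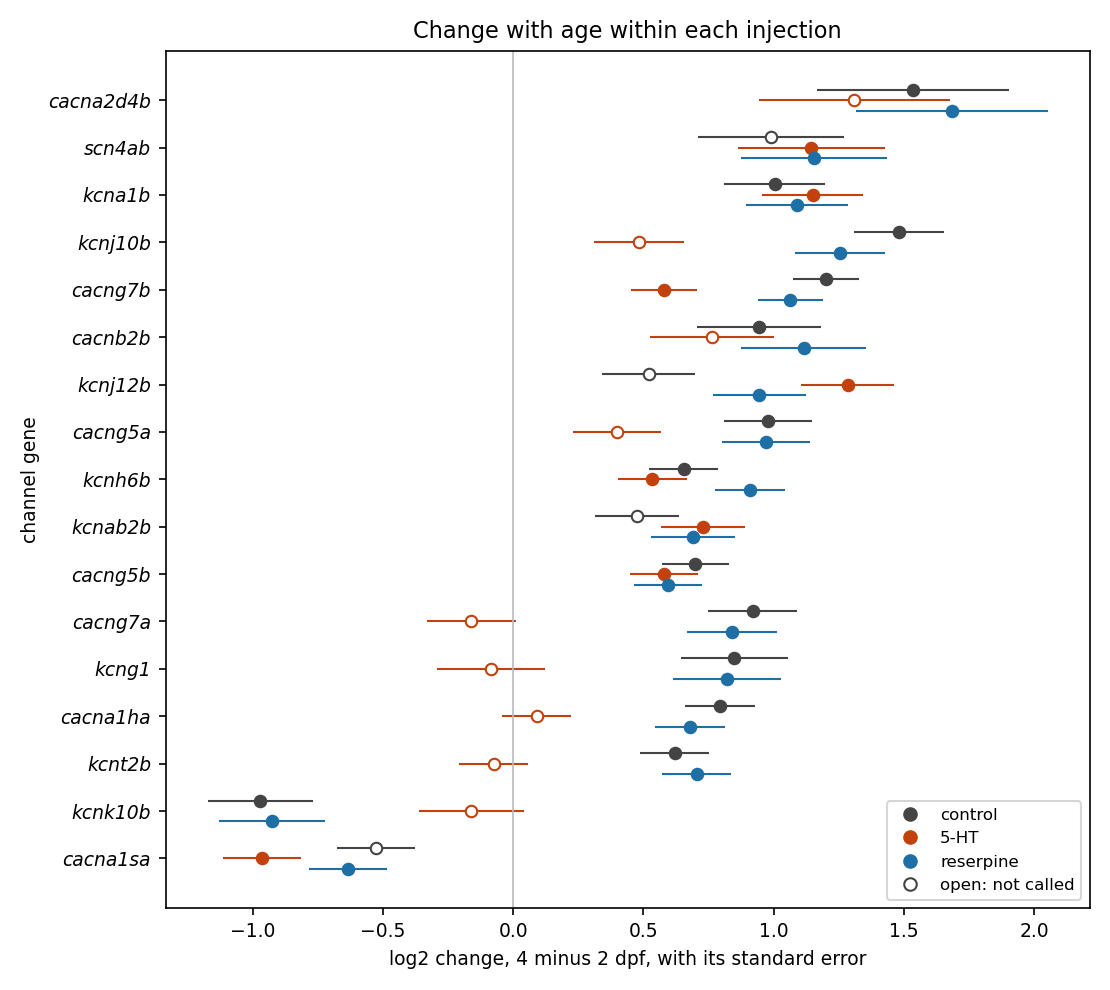
Log2 change between 4 and 2 dpf (horizontal axis, with its standard error) within control, 5-HT and reserpine larvae, for the 17 channel genes called in the same direction in at least 2 injections. Filled points passed the test. The 5-HT points of cacng7a, kcng1, cacna1ha and kcnt2b lie between -0.16 and 0.09, while their control and reserpine points lie between 0.62 and 0.92.

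Neither treatment moved a channel gene past the threshold against the control of its age, and the comparisons with 5-HT and with reserpine share that control. Controls also received DMSO and ethanol, and a part of these solvents in the 5-HT differences was not tested. For 5-HT at 2 dpf limma called 0 of 168 (background 0.00543%), with 25 at an unadjusted p under 0.05 (all genes 10.9%) and a smallest adjusted p of 0.115. At 4 dpf it called 0 (background 0%), with 12 at an unadjusted p under 0.05 (all genes 5.10%). For reserpine it called 0 at 2 dpf, with 7 at an unadjusted p under 0.05 (all genes 1.66%), and 0 at 4 dpf, with 0 at an unadjusted p under 0.05 (all genes 0.630%). The background of adjusted calls was 0% at both ages. Between 5-HT and reserpine it called 0 at each age, against a background of 0%. At an unadjusted p under 0.05 there were 6 at 2 dpf (all genes 2.53%) and 13 at 4 dpf (all genes 7.32%). Nothing is read from these unadjusted counts. The 95% interval of such a difference reached 0.28 to 0.82 to either side, with a median of 0.40 over the 168 genes. These intervals are not adjusted for the number of tests, and larger differences also missed the threshold, such as -0.705 for cacng6b at 2 dpf after 5-HT (adjusted p = 0.139).

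By family, the median difference of 5-HT from control was 0.08 for calcium, 0.01 for potassium and -0.15 for sodium channel genes at 2 dpf, and -0.10, -0.04 and 0.15 at 4 dpf. For reserpine it was -0.15, -0.05 and -0.21 at 2 dpf and -0.03, -0.05 and -0.03 at 4 dpf. At 2 dpf 12 of 13 sodium channel genes lay below control after reserpine, where over all genes 10073 of 18407 did. The mean over the 13 genes was 8.595 and 8.310 on the control arrays and 8.114 and 8.272 on the reserpine arrays. Neuron markers had 10.416 and 10.306 in controls and 10.139 and 10.326 after reserpine. The axonal partner genes had 9.105 and 8.861, then 8.720 and 8.899. In both of these lists reserpine replicate 2 lay above control replicate 2, while over the sodium channel genes it lay below. Reserpine replicate 1 was the lowest 2 dpf array, and control replicate 1 the highest, in all 3. They were also the lowest and the highest 2 dpf array over all genes tested (8.367 and 8.425). The part of the markers and of these arrays in the sodium channel values was not tested. The largest reserpine differences were -0.56 for cacnb3a and -0.53 for scn4bb at 2 dpf (adjusted p = 0.998 for both), and -0.39 for kcnk2a at 4 dpf (adjusted p = 1).

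The effect of 5-HT was then compared between ages, as 5-HT minus control at 4 dpf less the same at 2 dpf. The share of channel genes that passed, 1 of 168, was close to the 0.608% of all genes. The gene was kcnn3, of a small-conductance calcium-activated potassium channel. Its control arrays read 7.22 and 7.15 at 2 dpf and 7.73 and 7.74 at 4 dpf, its 5-HT arrays 7.70 and 8.02 at 2 dpf and 7.02 and 7.38 at 4 dpf, and its reserpine arrays 7.66 and 7.47 at 2 dpf and 7.71 and 7.78 at 4 dpf. The 5-HT arrays thus lay above both controls at 2 dpf and below both at 4 dpf. The 5-HT difference was 0.675 at 2 dpf (95% interval 0.30 to 1.05) and -0.535 at 4 dpf (-0.91 to -0.16), and the change of the effect was -1.21 (SE 0.24, adjusted p = 0.0363).

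The kcnn3 call was lost without any one of the 8 control and 5-HT arrays or either 4 dpf reserpine array. The adjusted p was then 0.0562 and 0.144 without 2 dpf 5-HT replicate 1 and 2, 0.124 and 0.0849 without those of 4 dpf, 0.0945 and 0.0878 without the 2 dpf controls, 0.117 and 0.149 without the 4 dpf controls, and 0.0555 without either 4 dpf reserpine array. It held without either 2 dpf reserpine array. For the effect of reserpine compared between ages 0 channel genes were called (background 0%), with 1 at an unadjusted p under 0.05 (all genes 0.625%), and the kcnn3 value was -0.37 (adjusted p = 1).

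Other channel genes had 5-HT arrays on opposite sides of the controls at the 2 ages, with an adjusted p over 0.05. On cacng7a the controls read 7.29 and 7.13 at 2 dpf and 8.16 and 8.10 at 4 dpf, and the 5-HT arrays 7.66 and 7.53 and then 7.51 and 7.36, a change of effect of -1.08 (adjusted p = 0.0564). The potassium channel genes kcnj10a and kcnj10b had -0.995 each (adjusted p = 0.0586 and 0.0732), kcnq3 -1.035 (0.0662), kcnc1a -1.1 (0.0853) and kcnj13, a channel known from pigment cells in zebrafish, -0.89 (0.0937). In the other direction lay the muscle gamma subunits cacng1a (1.15, adjusted p = 0.0611) and cacng6b (1.08, adjusted p = 0.0766). On cacng1a the controls read 9.04 and 8.78 at 2 dpf and 8.18 and 8.46 at 4 dpf, and the 5-HT arrays 8.34 and 8.37 and then 8.83 and 9.0. The kcnq3 values come from 1 of its 2 probe sets. Its change with age within the 5-HT larvae, -0.655 and called, was weaker with the mean of both (-0.45, adjusted p = 0.0854).

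Skeletal muscle markers moved beside these 2 gamma subunit genes. At 2 dpf the mean over the list was 11.897 and 11.824 in the control arrays, 11.580 and 11.548 after 5-HT and 11.597 and 11.774 after reserpine. At 4 dpf it was 11.728 and 11.665 on the controls, 11.804 and 11.793 after 5-HT and 11.809 and 11.698 after reserpine. Of the 23 markers 20 had a change of the 5-HT effect above 0, 1 of them called. The share of all genes above 0 is not given here, and nothing is read from this count. Among other muscle channel genes the change was -0.055 for cacng6a and -0.44 for cacna1sa. It was 0.155 for scn4ab, 0.375 for cacnb1, 0.445 for cacna1sb and 0.515 for kcna7, and none of these was called. The part of the markers in the values of cacng1a and cacng6b was not tested. On the same 2 dpf reserpine arrays cacng6b read 9.65 and 10.16, the lower value on the array with the lower marker mean. That array also had the lower mean over all genes tested (8.367 and 8.422).

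**Figure D5:**
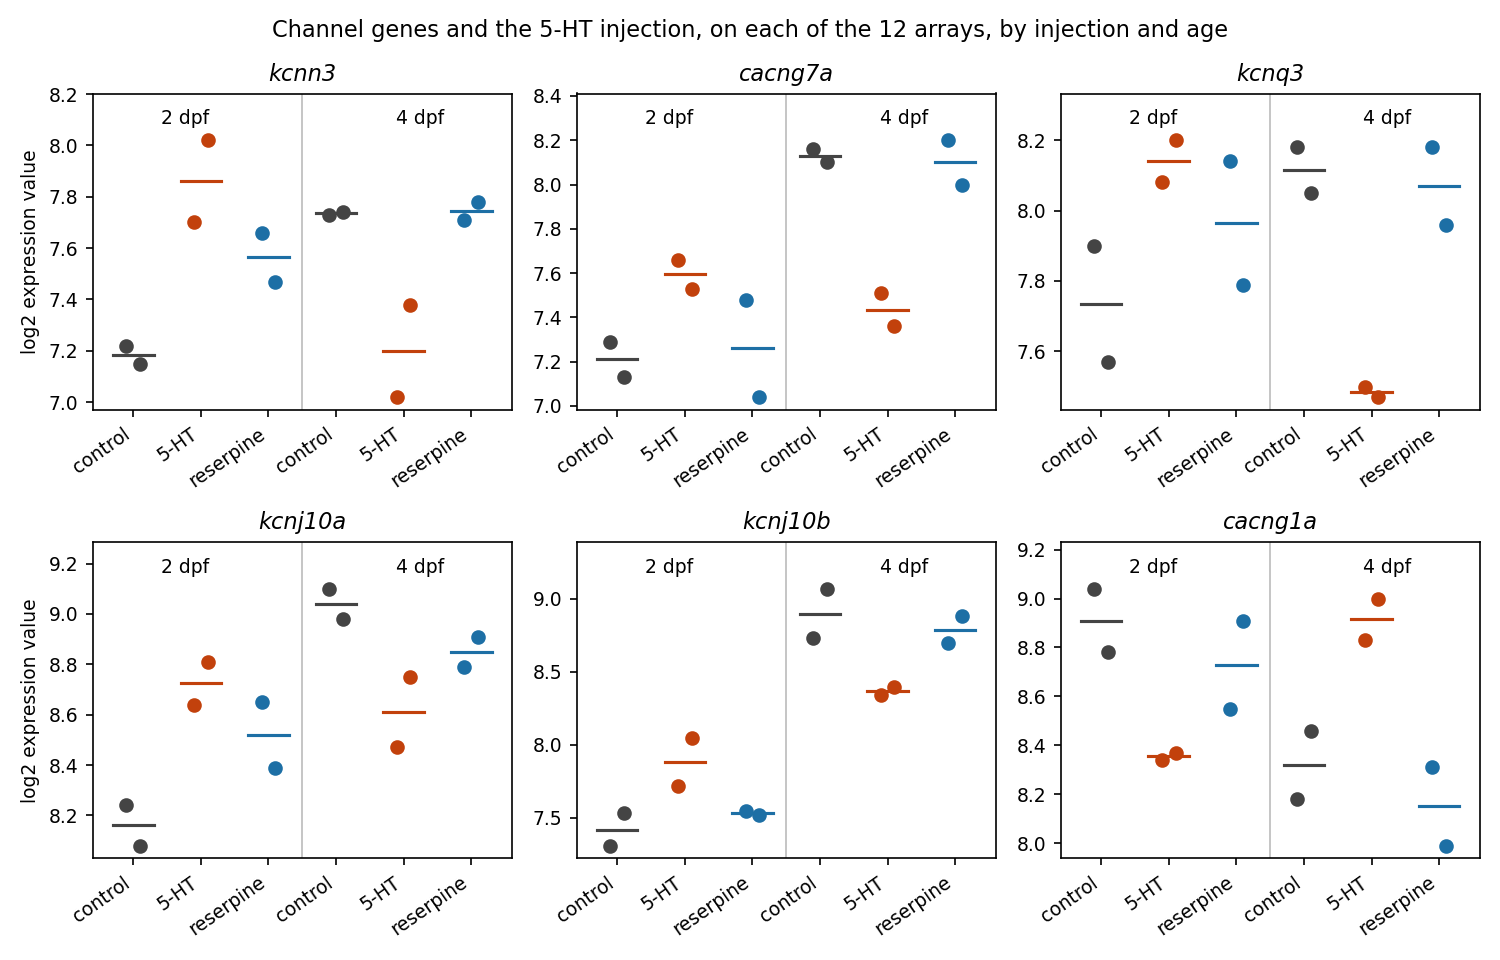
Log2 expression values (vertical axes) of 6 channel genes on each array (points), by injection and age, with the group mean as a bar. For kcnn3, cacng7a, kcnq3, kcnj10a and kcnj10b the 5-HT mean lies above the control mean at 2 dpf and below it at 4 dpf, and for cacng1a the reverse. Of these 6 kcnn3 passed the test of that difference (-1.21, adjusted p = 0.0363).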

How the data were processed

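The authors deposited log2 expression values for 73244 features of 12 Affymetrix Zebrafish Gene arrays, taken here without further normalization. How they were normalized, and with which software, is not given in the sources used here. Per the labels, total RNA of each pool of larvae was labelled with biotin.

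Features were named from the platform annotation, checked against a RefSeq gene table. The channel genes had 180 probe sets, and all 168 symbols matched the table. For the 8 genes with several, the one of highest mean over 12 arrays was used. Symbols were matched as written, so 5 genes annotated in capitals stayed out, of which KCNH4 rose with age (0.96, adjusted p = 1.73e-05), as did 2 probe sets shared between symbols. No level of a probe set was set against another's.

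Tests covered the 58127 features at or above the 25th percentile of the array on 2 or more of the 12 arrays. limma 3.58.1 in R 4.3.3 was fitted once to all 12 arrays with 6 group means (two-sided, 6 residual and 3.53 prior degrees of freedom), with Benjamini-Hochberg adjustment over all features tested and a threshold of 0.05. Intervals are at 95% and unadjusted. With 2 arrays a group, p-values measure the spread between pools. The fit was tested on simulated data.

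The genes, lists and tests were chosen with earlier results of these data known. Named genes were, per comparison, up to 10 of the largest called rises and falls whose groups did not overlap, filled to 5 a direction by smallest unadjusted p, with members of the tissue lists, extremes of subfamilies and pairs of copies called in opposite directions. Other named genes were chosen after their values were seen. Alternatives were other filters on low values, quantile normalization, another variance model, the mean of probe sets, the replicate number as a block, fits to the groups compared, and each array left out. Matching symbols regardless of case was added after seeing the data. Replicate numbers were not taken to pair the groups, since the labels give numbers alone and the correlation of replicate differences between groups ran from -0.066 to 0.329 over 15 pairs of groups (median 0.179).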

Additional observations from a re-analysis of the deposited data

Results flagged for a closer look

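The 5-HT effect on kcnn3 differed between ages by the test of that difference, an interaction term in limma: the change of the effect from 2 to 4 dpf was -1.21 on the log2 scale (adjusted p = 0.0363). Its 5-HT arrays lay above both controls at 2 dpf and below both at 4 dpf. The call was lost without any one of 10 arrays, as given above. In this test 1 of the 168 channel genes and 112 of all 18407 genes were called, which are similar shares.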

How the results depend on the processing

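The count of 65 genes called with age was 60 with no filter, 68 with a median filter, 65 after quantile normalization, 66 with trend and robust, 64 with the mean of probe sets, 72 with the replicate block, 66 regardless of case and 45 to 66 with 1 array left out. Fitting only the arrays of the 2 groups compared gave 14 in place of 23 calls in controls, 11 in place of 19 after 5-HT and 1 in place of 21 after reserpine, with fewer arrays to estimate the spread. Leaving out 1 array gave 2 to 26, 2 to 22 and 4 to 22, and the replicate block 31, 22 and 27. The change of the 5-HT effect had 4 calls with a median filter, 2 after quantile normalization, 3 with trend and robust, 4 with the replicate block and 0 to 7 with 1 array left out, with 7 without either 2 dpf reserpine array. The cause was not tested. The other 7 comparisons had 0 calls under every alternative. The replicate block ended no call of a named gene and added 4, the change of the 5-HT effect on cacng7a (adjusted p = 0.0299), kcnj10b (0.0396) and kcnq3 (0.0427), and the age change of cacna1sa in controls (0.045). Of 3989 repeats of 215 single-gene results, 3449 kept direction and side of the threshold, 510 lost and 28 gained the call, and 2 uncalled values changed sign: kcnj1a.6 for reserpine minus control at 4 dpf was -0.03 without 4 dpf control replicate 2 and 0.48 without replicate 1, and the change of the reserpine effect on kcnh2a was 0.012 with the mean of its probe sets.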
